A study of Mus musculus with 4 samples.

Results

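The 10 genes described here encode the cathepsins A, B, C, D, H, K, L, S and Z (Ctsa, Ctsb, Ctsc, Ctsd, Ctsh, Ctsk, Ctsl, Ctss and Ctsz) and the secreted inhibitor cystatin C (Cst3). They were taken as every probe that the array files assign to a RefSeq transcript of one of these genes, which gave 12 probes among 55619 kept for the 37042 genes on the array. Ctsa and Ctsd were each read by 2 probes and the other 8 genes by 1. The samples were cultures of primary chondrocytes from C57BL/6J mice 6 days old. Both groups carried loxP-flanked alleles of Rela, which encodes the NF-κB subunit RelA. One, Rela fl/fl, had no Cre, and the other, labelled cKO, also carried Prrx1-Cre, which is active in limb mesenchyme. Each genotype was cultured with TNF at 10 ng per ml for 3 days or without it. One single-colour Agilent array was hybridised for each of the 4 combinations, so there was 1 array per group, no replicate and no test. The differences below compare those arrays, not the conditions.

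Cathepsins are proteases that work mainly in the acid interior of lysosomes. B, C, H, K, L, S and Z are cysteine proteases, D is an aspartic protease, and A is a serine carboxypeptidase that also holds the sialidase Neu1 and the β-galactosidase Glb1 in a complex. They are made as inactive precursors and sorted to lysosomes by mannose 6-phosphate receptors. Cystatin C is secreted and blocks the cysteine cathepsins outside the cell. In skeletal tissue cathepsin K is best known as the collagenase of osteoclasts, and cathepsins B and L are known from degrading cartilage. Cathepsin S is mostly a product of macrophages and other antigen-presenting cells, where it trims the invariant chain Cd74 from MHC class II.

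A signal is the processed intensity of a spot divided by the 75th percentile of its array, so that 1 marks that percentile. It compares one probe across arrays and is not a level that can be set against another probe's. The array software also marked each spot as well above its background or not. Repeated spots gave a measure of technical error: 399 probes were printed 10 times on each array, and the SD of a log2 difference between single spots was 0.08 at signals over 2, 0.14 from 0.2 to 2 and 0.43 under 0.2. That spread was taken from spots within an array. It holds no variation between cultures and none from labelling, hybridisation or scaling between arrays. The software's own error of a log2 difference was wider for spots over 2, at 0.2, and narrower for the dim Ctss spot, at 0.28 to 0.41.

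Features of the whole arrays bear on every value. The Rela probe read 28.4 in Rela fl/fl without TNF, 34.9 with TNF, 34.0 on the cKO-labelled array without TNF and 40.2 with TNF. It was thus not lower on the cKO-labelled arrays, and where it lies relative to the deleted exons is not given in the sources used here. Xist stood well above background in Rela fl/fl, with and without TNF, and on neither cKO-labelled array, and the Y-linked genes Ddx3y and Eif2s3y were higher on the latter by 1.49 to 1.83 on the log2 scale. Both were also well above background in Rela fl/fl, Ddx3y at 1.31 and 1.3 and Eif2s3y at 1.78 and 1.84 (without and with TNF). The sex make-up of the cultures differed along with the genotype label, and the 2 cannot be told apart. Every one of the 14 chondrocyte markers was detected on each array, with Col2a1 between 584 and 610. The cKO-labelled arrays were lower, with a median log2 difference of −0.62 without TNF and −0.44 with TNF. Of the 14 markers, 3 and 1 passed 2-fold, against 7.91% and 4.37% of all genes in either direction. In bulk RNA, fewer cells of a type and less RNA per cell cannot be told apart. Patches, in which at least 3 neighbours of a spot were 2-fold or more brighter than on each other array, covered 1.04% to 10.7% of the spots of an array.

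Of the 12 cathepsin and cystatin C probes, 11 exceeded background on every array. The exception was Ctss, which did not on the cKO-labelled array without TNF. None of the 12 spots was marked as an outlier, and 4 lay in a patch on at least 1 array: those of Ctsb, Ctsk and Ctsz and the dimmer Ctsa probe.

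**Figure D1:**
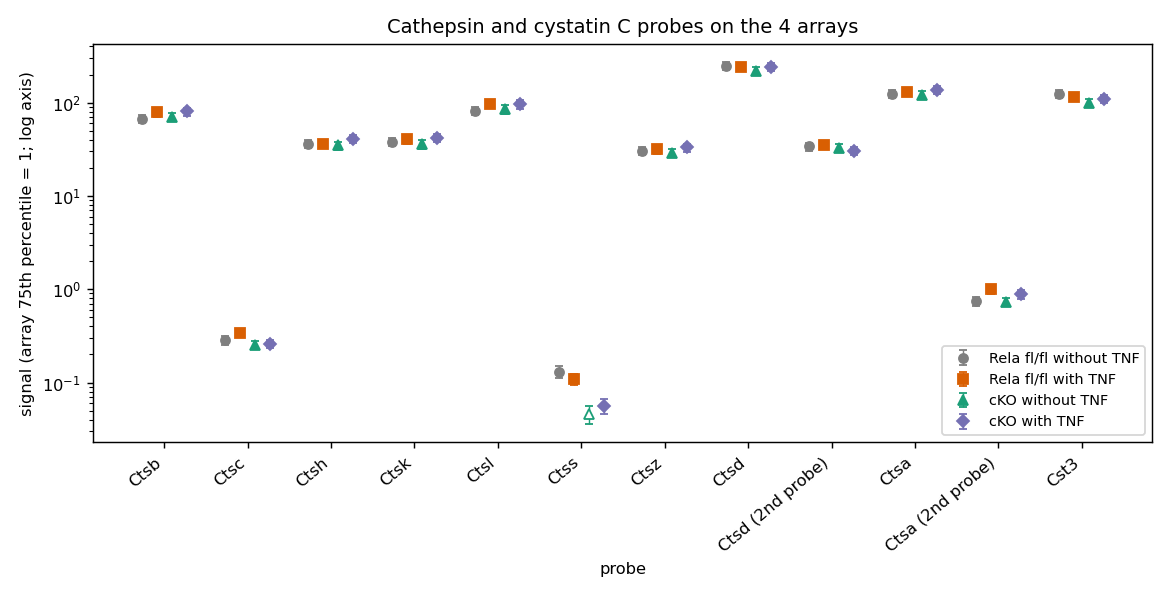
Signal of each of the 12 probes on each of the 4 arrays, on a log axis. Bars show the software's error of the spot, and an open symbol a spot not well above background; the 4 arrays lie close together for every probe except Ctss, which read 0.13 and 0.108 on the Rela fl/fl arrays and 0.0462 and 0.0562 on the cKO-labelled arrays.

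Ctss was the gene with the widest range. Its signal was 0.13 in Rela fl/fl without TNF and 0.108 with TNF, and 0.0462 on the cKO-labelled array without TNF and 0.0562 with TNF. Both Rela fl/fl arrays were above both cKO-labelled arrays. The underlying intensities were 79.5 ± 11.4, 66.5 ± 8.87, 29.2 ± 6.62 and 33.1 ± 5.7 (software error, in the same order), near the lower end of what the array measured. Without TNF the log2 difference was −1.5 with a software error of 0.39, or 2.82-fold. The dimmer spot was not well above background, so that the size of this difference is uncertain. With TNF the log2 difference was −0.94 with an error of 0.31, or 1.92-fold, short of the 2-fold limit used for a call, but it was −1.01 unscaled and −1.0 in the authors' table, at or past that limit. Both differences were over 2 technical SDs (0.87). With another background correction, normexp followed by quantile normalization, they shrank to −0.64 and −0.28. Within a genotype the Ctss values with and without TNF lay closer, at −0.27 in Rela fl/fl and 0.28 on the cKO-labelled arrays, inside 1 technical SD, the latter against the spot not well above background. The spot lies in the outermost column of the array, and the software marked its local background as an outlier on all 4 arrays.

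Ctss lies next to Ctsk on chromosome 3. Because these neighbours encode proteases best known from different cell types, the 250 bases before each start are shown, from RefSeq on GRCm38.p6. The first window is chr3:95526536-95526785 and the second chr3:95498960-95499209, both on the plus strand. Capitals mark GAGGAA, the core bound by the myeloid factor PU.1, and GAAANNGAAA, the interferon-stimulated response element (ISRE).
Ctss: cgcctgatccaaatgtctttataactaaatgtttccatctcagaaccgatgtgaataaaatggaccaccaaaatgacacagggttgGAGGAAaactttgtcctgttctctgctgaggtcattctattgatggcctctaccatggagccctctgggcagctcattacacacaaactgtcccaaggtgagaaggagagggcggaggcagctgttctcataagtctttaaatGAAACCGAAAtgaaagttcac
Ctsk: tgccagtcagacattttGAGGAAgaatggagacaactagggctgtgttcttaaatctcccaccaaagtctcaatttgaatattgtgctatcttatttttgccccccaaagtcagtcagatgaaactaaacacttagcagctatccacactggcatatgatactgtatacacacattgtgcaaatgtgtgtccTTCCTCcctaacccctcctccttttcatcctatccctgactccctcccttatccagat
In the Ctss window the ISRE match began at position −21, counted back from the start, and 2.98% of all 32851 windows of this length held one on either strand. The PU.1 core was found in both windows, on the minus strand for the one at −58 of Ctsk, and in 23.3% of all windows. Neither held the NF-κB motif GGGANNNNCC, which was in 17.6% of all windows. Over the 9 windows given for these genes, 1 held the ISRE (Ctss), 4 the PU.1 core (Cst3, Ctsc, Ctsk and Ctss) and 1 the NF-κB motif (the second window of Ctsa). No 2 of these matches overlapped within the windows shown. They are matches of letters, not binding sites.

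Markers of macrophages were read beside Ctss. Of 15 markers, 9 or 10 were well above background on each array. Ptprc, the leukocyte phosphatase CD45, was not well above background on any. Csf1r, the macrophage growth factor receptor, read 3.07, 2.86, 2.8 and 2.95 (Rela fl/fl without and with TNF, then the cKO-labelled arrays in the same order) and hardly moved. The summed signal of the list was 40.3, 36.9, 45.1 and 36.4, most of it from a single Itgam probe at 31.8 to 40.4. Tyrobp, an adaptor of myeloid receptors, read 0.119, 0.0597, 0.0387 and 0.0404. Lyz2, macrophage lysozyme, read 0.661, 0.247, 0.153 and 0.128, the first of these in a patch. Like Ctss, both were highest in Rela fl/fl without TNF, as were Cx3cr1, Fcer1g and Csf1r. Tyrobp and Lyz2 were named after their values were seen. Of the 11 markers tested without TNF, 6 read higher on the cKO-labelled array: Adgre1, Cd14 (0.31), Mrc1 (0.24), Itgam (0.2), C1qb (0.08) and Aif1, at 0.0479 against 0.0406, the latter not well above background. Without TNF 3 of 11 markers tested were over 2-fold lower on the cKO-labelled array (Tyrobp, Lyz2 and Cx3cr1), against 4.4% of all genes. Only 1 was higher (Adgre1), where 7.91% of all genes differed in either direction. Of these 4 markers, 3 rested on a spot in a patch. With TNF none passed the limit in either direction, against 4.37% of all genes. Their part in the Ctss difference was not tested. Cd74, the substrate of cathepsin S, read 0.0743, 0.127, 0.0653 and 0.0476, with a patch under the spot in Rela fl/fl with TNF and on the cKO-labelled array without it.

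**Figure D2:**
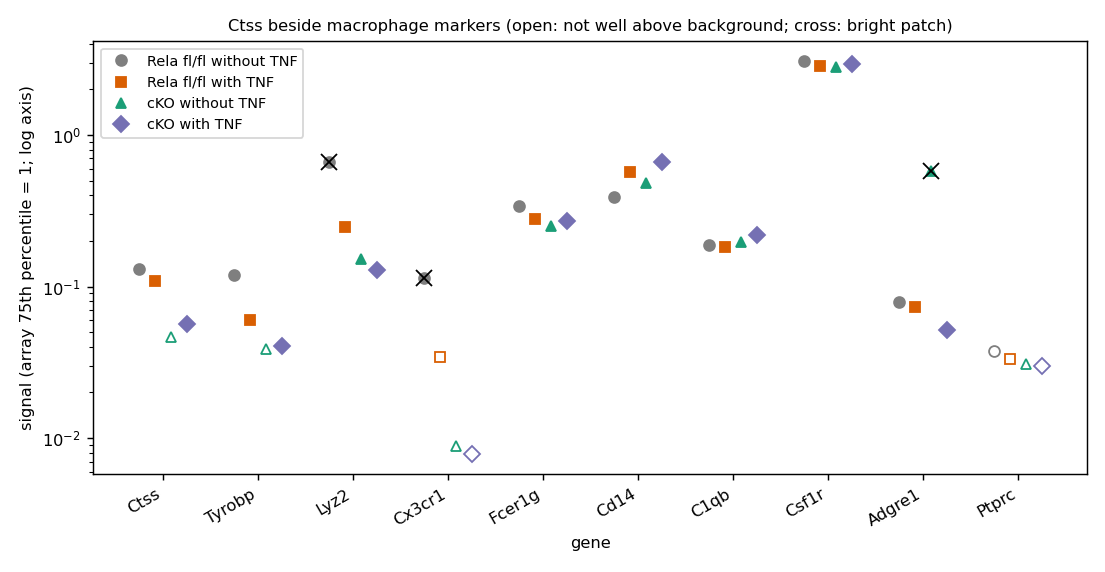
Signal of Ctss and of 9 of the 15 macrophage markers on the 4 arrays, on a log axis. Open symbols were not well above background and crosses mark spots in a bright patch. Ctss, Tyrobp, Lyz2, Cx3cr1, Fcer1g and Csf1r were highest in Rela fl/fl without TNF, with Csf1r between 2.8 and 3.07. Cd14, C1qb and Adgre1 were not, and Ptprc was not well above background on any array. Itgam, Mrc1 and Aif1, which read higher on the cKO-labelled array without TNF, are not drawn.

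Over the 13353 genes with a symbol and a signal above background on all 4 arrays, the pattern most like that of Ctss, by root mean square difference of centred log2 signals, was that of Slit1, a secreted axon guidance ligand (0.052). Fam89a (0.059) and Sfrp5, a secreted Wnt inhibitor (0.063), followed. Slit1 read 0.789, 0.683, 0.307 and 0.369 across the arrays in the order above, and Sfrp5 0.23, 0.182, 0.0804 and 0.0887. With 4 points per gene such likeness is a description only.

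Ctsc, the dipeptidyl peptidase that activates granule proteases of leukocytes, was also dim. It read 0.287 in Rela fl/fl without TNF, 0.342 with TNF, 0.253 on the cKO-labelled array without TNF and 0.261 with TNF. The Rela fl/fl values were above both others, but neighbouring values in that order differed by at most 0.25 on the log2 scale, within 2 technical SDs (0.27). With TNF the log2 difference between genotypes was −0.39 with a software error of 0.21, and normexp reduced it to −0.22. The patterns most like it were those of Pcx, Pcdhb17 and Ppp1r3d (0.018 to 0.022), each with a spot in a patch.

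With the scaling used here and the brightest probe for each gene, Ctsb and Ctsl were the pair that read higher with TNF by over 2 technical SDs in both genotypes. With probes averaged, Ctsa was higher too, by 0.26 in Rela fl/fl and 0.21 on the cKO-labelled arrays. Ctsb read 67.4 in Rela fl/fl without TNF and 78.4 with it, and 70.7 and 80.3 on the cKO-labelled arrays. Ctsl read 81.4 and 97.0 in Rela fl/fl, and 84.9 and 95.8 on the cKO-labelled arrays. For both genes the 2 arrays with TNF were above the 2 without it. The log2 differences were 0.22 and 0.18 for Ctsb and 0.25 and 0.18 for Ctsl, or 1.13-fold to 1.19-fold, and each was within 2 software errors. The Ctsb spot with TNF in Rela fl/fl lay in a patch. Unscaled, the values on the cKO-labelled arrays came to 0.08 for Ctsb and 0.07 for Ctsl, and after quantile normalization that of Ctsb was 0.01. Between genotypes Ctsb and Ctsl differed by −0.02 to 0.07.

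Ctsh, Ctsk and Ctsz showed another order. Ctsh, an aminopeptidase, read 36.1 and 36.4 in Rela fl/fl without and with TNF, and 34.8 and 40.8 on the cKO-labelled arrays. Ctsk read 37.9 and 40.4, then 35.7 and 42.2. Ctsz, a carboxypeptidase, read 30.3 and 31.5, then 29.0 and 33.1. In all of these genes the cKO-labelled array without TNF was the lowest and that with TNF the highest. Their TNF differences were 0.01, 0.09 and 0.06 on the log2 scale in Rela fl/fl, within 2 technical SDs, and 0.23, 0.24 and 0.19 on the cKO-labelled arrays. The latter came to 0.13, 0.14 and 0.09 unscaled, to 0.08, 0.09 and 0.06 after quantile normalization and to 0.06, 0.07 and 0.06 after normexp, all within 2 technical SDs (0.16). The highest of them, Ctsk, differed by 1.18-fold. The Ctsk spot in Rela fl/fl without TNF and the Ctsz spots in both Rela fl/fl arrays lay in patches.

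Osteoclasts, for which Ctsk is a marker, were checked by a list of 10. Calcr, Dcstamp and Mmp9 were not well above background on any array, and Acp5, tartrate-resistant acid phosphatase, read 4.69, 4.59, 5.14 and 5.71. The summed signal was 7.71, 7.39, 7.9 and 9.44. It was highest on the same array as Ctsk, and its part in the Ctsk values was not tested. Itgb3, an integrin of osteoclasts and other cells, was 1.1 higher on the log2 scale with TNF on the cKO-labelled arrays (0.762 to 1.64) and 0.19 higher in Rela fl/fl. Atp6v0d2, a proton pump subunit of osteoclasts, was also higher there, by at least 1.5 and with no spot in a patch. Thus 2 of the 7 markers tested passed 2-fold there, against 5.48% of all genes in either direction. An "at least" here means that the dimmer spot was not well above background and was raised to the dimmest signal that was. Car2 and Atp6v0d2 were lower with TNF in Rela fl/fl, with log2 differences of −3.21 or below and −1.8 or below, bounded in the same way, and in both cases from a spot in a patch on the array without TNF.

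Ctsd and Ctsa belong to other protease classes. The brighter Ctsd probe read 247 and 242 in Rela fl/fl without and with TNF, and 218 and 243 on the cKO-labelled arrays, so that the cKO-labelled array without TNF stood lowest, by −0.18 on the log2 scale against Rela fl/fl. The second Ctsd probe read 33.9 and 35.5, then 32.6 and 30.2. The probes disagreed in the sign of the TNF difference on the cKO-labelled arrays (0.15 and −0.11) and in Rela fl/fl (−0.03 and 0.07), each within 2 technical SDs, and both are assigned to one transcript. The brighter Ctsa probe read 124 and 131, then 121 and 136, with TNF differences of 0.08 and 0.16. The dimmer Ctsa probe read 0.744 and 1.0, then 0.738 and 0.884. Its TNF difference in Rela fl/fl was 0.43 with a software error of 0.21. Its spot without TNF, the lower of that pair, lay in a patch. Of the partners of cathepsin A, Neu1 differed with TNF by 0.0 in Rela fl/fl and 0.23 on the cKO-labelled arrays, and Glb1 by 0.1 and 0.09.

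The E-box CACGTG, which reads the same on both strands and is the core of the element bound by TFEB, a regulator of lysosomal genes, was searched in the same windows, since it is the motif most tied to this gene family. Windows were given for 8 of the 10 genes (9 windows, 2 of them for Ctsa), and none for Ctsb and Ctsh. It was present in 3 of the 9, those of Ctsd, Ctsl and the second of Ctsa, and in 6.02% of all windows. The stretches that hold it are shown with the motif in capitals, at chr7:142387900-142388077 on the minus strand, chr13:64370731-64370770 on the minus strand and chr2:164833741-164833772 on the plus strand.
Ctsd: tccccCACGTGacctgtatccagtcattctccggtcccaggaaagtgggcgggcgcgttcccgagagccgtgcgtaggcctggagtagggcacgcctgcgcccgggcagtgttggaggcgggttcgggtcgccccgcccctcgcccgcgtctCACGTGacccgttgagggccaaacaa
Ctsl: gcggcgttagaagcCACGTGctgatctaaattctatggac
Ctsa: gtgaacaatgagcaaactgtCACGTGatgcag
In the Ctsd window it stood at −245 and −98, in that of Ctsl at −236 and in that of Ctsa at −12. These genes did not share an order of values across the arrays: Ctsl was lowest in Rela fl/fl without TNF, while Ctsd and Ctsa, by their brighter probes, were lowest on the cKO-labelled array without TNF.

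Cst3, the inhibitor, read 123 in Rela fl/fl without TNF and 116 with TNF, and 99.2 and 110 on the cKO-labelled arrays. Both Rela fl/fl arrays were above both others. Without TNF the log2 difference between genotypes was −0.31 with a software error of 0.2, or 1.24-fold, and past 2 technical SDs. With TNF it was −0.08, within that spread, but −0.14 unscaled and, past that spread, −0.19 after quantile normalization and −0.23 after normexp. Its TNF difference was −0.09 in Rela fl/fl and 0.14 on the cKO-labelled arrays. The latter turned to −0.04 after quantile normalization and −0.08 after normexp. The intracellular inhibitor Cstb read 24.3, 26.0, 24.1 and 29.9.

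**Figure D3:**
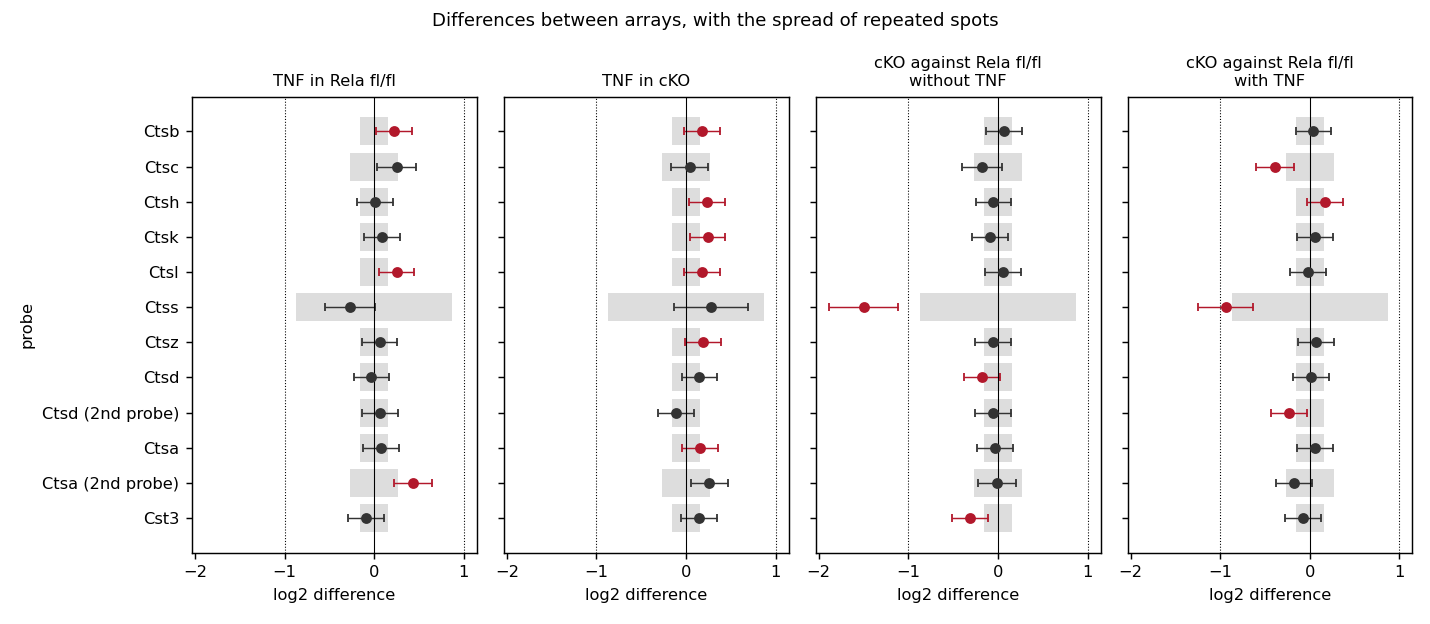
Log2 differences of each of the 12 probes in the 4 comparisons between arrays. Grey boxes span 2 technical SDs on either side of 0, bars show the software's error, red points lie outside the grey box and dotted lines mark 2-fold; only Ctss without TNF, at −1.5, passed a dotted line.

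The 10 genes were counted against all genes tested. In Rela fl/fl none of the 10 differed by 2-fold or by 1.5-fold, where 6.66% and 10.8% of the 23408 genes tested did. On the cKO-labelled arrays none did either, against 5.48% and 12.1% of 24903 genes. A count of 0 among 10 is near these shares and is no result about these genes. Without regard to sign, their median size was 0.09 in Rela fl/fl, against 0.11 for all genes above background on 4 arrays, and 0.18 on the cKO-labelled arrays, against 0.15. By the finer limit of 2 technical SDs, 2 of the 10 (Ctsb and Ctsl) read higher in Rela fl/fl once TNF was added, against 10.7% of all genes. The dimmer Ctsa probe, which did not stand for its gene, also passed there, at 0.43 with a limit of 0.27. On the cKO-labelled arrays 6 were higher (Ctsa, Ctsb, Ctsh, Ctsk, Ctsl and Ctsz), against 16.2%. All 6 were among the 8 of the 10 genes with a signal over 2, and 34.1% of all genes with such a signal were higher by this limit. Without scaling, the median of all genes in this comparison moved from 0.06 to −0.05, and a fixed limit loses calls with it. None of the 6 passed it without scaling (0.06 to 0.14), in the authors' table (0.05 to 0.13), after quantile normalization (at most 0.09) or after normexp (−0.02 to 0.07). The median log2 difference was 0.07 in Rela fl/fl, against 0.01 for all genes tested, and 0.18 on the cKO-labelled arrays, against 0.06. The scaling moved the latter together with all genes: it was 0.08 unscaled and 0.07 in the authors' table, against −0.05 for all genes in both, so that the 10 genes stayed above all genes by about as much. After normexp it was 0.06, against 0.03, and after quantile normalization 0.05, against 0.05. The median in Rela fl/fl ranged from 0.01 (normexp, and with patches left out) to 0.08 (unscaled).

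The value on the cKO-labelled arrays has to be read against signal. In that comparison the difference between arrays went up, outside the dimmest spots, with the brightness of the spot. Genes above background on all 4 arrays were sorted by signal into 20 bins. The median was −0.04 in the dimmest bin, −0.07 in the second and 0.16 in the brightest. In Rela fl/fl it was −0.19, −0.05 and 0.0 in the same bins. Of the 9 genes in these bins (Ctss is not in them), 7 lay between the quartiles of their own bin on the cKO-labelled arrays and 2, Ctsh and Ctsk, above them. In Rela fl/fl 5 lay above the quartiles of their bin (Ctsa, Ctsb, Ctsc, Ctsk and Ctsl), 3 between them and 1, Cst3, below. This sorting was chosen after the values were seen. All 10 genes had a positive TNF difference on the cKO-labelled arrays, but that count depended on the scaling. It was 9 of 10 unscaled and in the authors' table, 8 of 10 after normexp and 7 of 10 after quantile normalization.

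**Figure D4:**
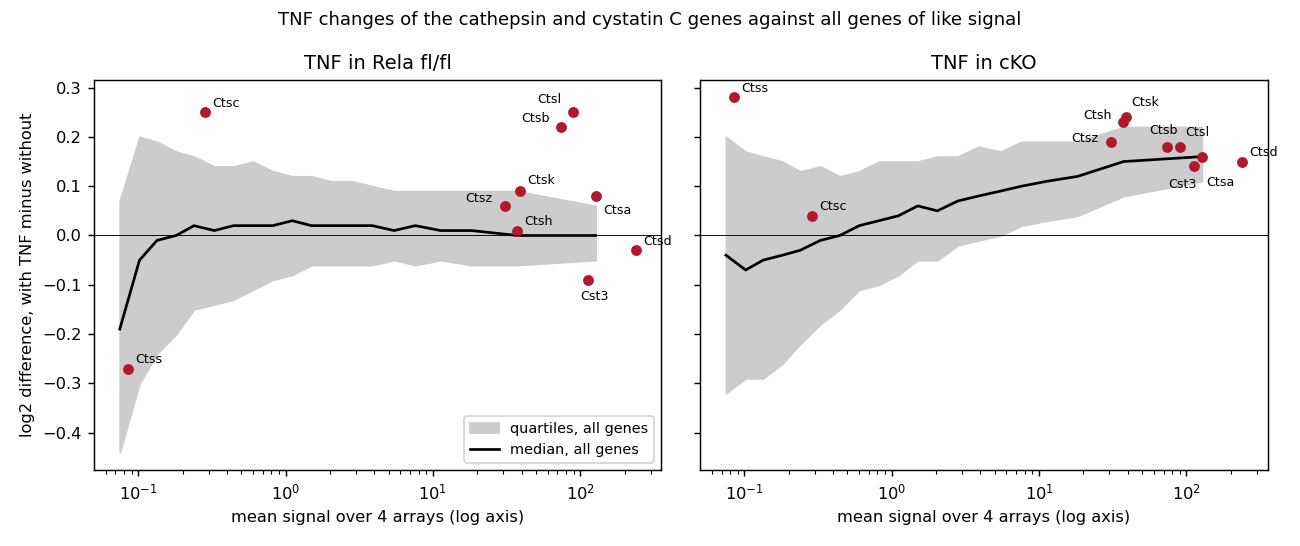
Log2 difference with TNF minus without against mean signal (log axis), in Rela fl/fl and on the cKO-labelled arrays. The line and band show the median and quartiles of all genes above background on 4 arrays in 20 bins of signal, and points the 10 genes; on the right the line climbs to 0.16 and most of the bright cathepsins lie in the band, while on the left Ctsb (0.22) and Ctsl (0.25) lie above it.

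Between genotypes, 1 of the 10 genes, Ctss, was over 2-fold lower on the cKO-labelled array without TNF, against 4.4% of the 24277 genes tested that were lower and 7.91% that differed in either direction. No other gene of the 10 passed 1.5-fold there, where 13.5% of all genes did. With TNF none differed by 2-fold, against 4.37% of 24513, and Ctss alone passed 1.5-fold, against 10.2%. Without TNF 3 genes were lower by over 2 technical SDs (Ctsd, Ctss and Cst3), against 12.8% of all genes, and the Ctsd value (−0.18) was inside that limit unscaled (−0.13), after quantile normalization (−0.13), after normexp (−0.14) and with probes averaged (−0.12). With TNF 2 were lower (Ctsc and Ctss) and 1 was higher (Ctsh), against 10.4% and 14.6%. The second Ctsd probe gave −0.06 without TNF, within that spread, and −0.23 with TNF, past it, where the brighter probe gave 0.01. The median difference was −0.08 without TNF and 0.02 with TNF, against 0.0 and 0.05 for all genes tested. The value with TNF lay below that of all genes in these settings too: it was −0.04 against −0.01 both unscaled and in the authors' table, −0.06 against 0.04 after quantile normalization, −0.05 against 0.04 after normexp and −0.02 against 0.06 with patches left out. Its own sign, and the 6 of 10 genes above 0, went with the scaling and with the probes and spots used. With probes averaged the median was −0.04, against 0.04 for all genes, with 4 of 10 genes above 0. The Ctsh difference of 0.17 came to 0.07 after quantile normalization and 0.04 after normexp.

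The difference of the TNF response between genotypes was taken as the change on the cKO-labelled arrays minus that in Rela fl/fl. None of the 10 passed 2-fold or 1.5-fold, against 11.5% and 20.1% of the 25955 genes tested. Cst3, at 0.23, was the only one past 2 technical SDs, a limit that is wider for dim spots, where 12.4% of all genes and 17.7% of those with a signal over 2 were higher past theirs, and quantile normalization reduced it to 0.07. The median over the 10 genes was 0.14, against 0.06, and stood above all genes also unscaled (0.03 against −0.05), in the authors' table (0.07 against −0.02) and, by less, after normexp (0.03 against 0.02). It did not after quantile normalization (0.04 against 0.05) or with probes averaged (0.07 against 0.07).

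Other lysosomal genes were read from lists made for the organelle. Over all genes, 6.66% in Rela fl/fl and 5.48% on the cKO-labelled arrays passed 2-fold with TNF. Of 8 other lysosomal proteases 7 were tested and none passed 2-fold with TNF in either genotype. Their medians were 0.09 in Rela fl/fl and 0.14 on the cKO-labelled arrays. Legumain (Lgmn), which processes cathepsin precursors, read 27.7, 29.4, 25.9 and 25.3. Of 30 glycosidases and other hydrolases none passed in Rela fl/fl (median 0.11) and 1 was lower on the cKO-labelled arrays (median 0.08): Arsb, an arylsulfatase, at −1.03, from a spot in a patch. Of 29 genes of the lysosomal membrane and proton pump, in Rela fl/fl 1 was higher (Laptm5, 1.51) and 1 lower (Atp6v0d2, −1.8 or below), both from spots in patches. On the cKO-labelled arrays 1 of 28 was higher, again Atp6v0d2, by at least 1.5. None of the 12 tested genes of sorting to the lysosome and the TFEB family passed. Among these, Tfe3 and Mitf, relatives of TFEB, were each 0.49 higher with TNF on the cKO-labelled arrays, and 0.2 and 0.3 higher in Rela fl/fl.

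The other cathepsins and inhibitors were mostly dim. Of 13 further cathepsin genes, Ctsf and Ctsw were well above background on all 4 arrays. Ctsf read 3.24, 3.51, 2.75 and 2.93, and Ctsw 0.178, 0.227, 0.189 and 0.219. Ctsg and Ctso were bright on the cKO-labelled array without TNF, at 1.25 and 0.239, where both spots lay in a patch. The log2 differences with TNF were −3.99 for Ctsg and −3.11 for Ctso, whose spot with TNF was not well above background. Of 9 cystatins and other inhibitors tested in Rela fl/fl, 2 were over 2-fold higher with TNF (Cst13, by at least 1.66, and Stfa3, by at least 1.64 on the log2 scale) and 1 was lower (Cstdc4, −1.72 or below, from a patch). All of these spots read under 0.2, and the dimmer of each pair was not well above background. On the cKO-labelled arrays 1 of 10 was higher, Stfa3, by 1.08, with its dimmer spot not well above background. Over all genes, 6.66% in Rela fl/fl and 5.48% on the cKO-labelled arrays passed 2-fold with TNF. Stfa3 and Cstdc4 belong to a family of closely similar genes, so their probes may share targets. Of 8 genes of the MHC class II and interferon γ axis none passed 2-fold with TNF in either genotype. Their median was 0.51 in Rela fl/fl and −0.05 on the cKO-labelled arrays. In Rela fl/fl 3 passed 1.5-fold (Ciita, Cd74 and H2-Eb1), against 10.8% of all genes. These 3 read under 0.2, and their differences of 0.59 to 0.82 lay within 2 technical SDs (0.87). The Ciita spot without TNF was not well above background, and the Cd74 spot with TNF lay in a patch.

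**Figure D5:**
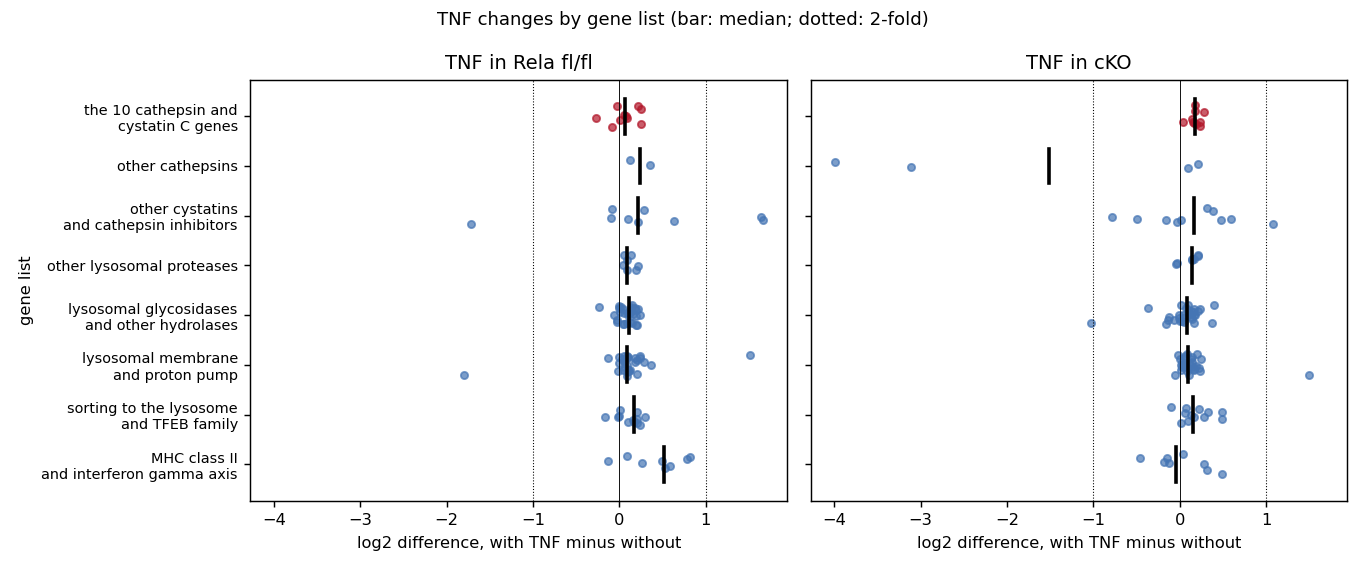
Log2 difference with TNF minus without for each tested gene of the 10 cathepsin and cystatin C genes (red) and of 7 other lists (blue), in Rela fl/fl and on the cKO-labelled arrays. Black bars show list medians and dotted lines 2-fold; the medians of the 10 genes, 0.07 and 0.18, lie near those of the other lysosomal proteases, 0.09 and 0.14.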

How the data were processed

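Labelled RNA of 4 cultures was hybridised to Agilent SurePrint mouse arrays with 1 colour, all on 1 slide. The authors deposited the spot intensity files of Agilent Feature Extraction 10.10.1.1 (per the file headers; design build mm9) and a table of normalized intensity values, which here was proportional to the background-subtracted signal on each array by a factor of 1.77 to 1.83. The intensity used was the processed signal, corrected for background by the software. Control spots and outlier spots (138 to 225 per array) were left out, and log2 intensity was set to each array's 75th percentile (589.3 to 632.6). Of the probes, 50.9% to 58.1% were well above background. Repeated spots were averaged and the brightest probe stood for a gene. Accessions gave symbols through the RefSeq table of GRCm38.p6 for 27235 of 55681 probes. A gene was tested where the brighter array was well above background, and called at 2-fold, with the dim value raised, where lower, to the dimmest signal that still passed this mark on that array. With 1 array per group no p-value was computed, and the number of arrays limits the precision. A spot was taken to lie in a patch of an array where at least 3 spots within 5 rows and 2 columns of it were 2-fold or more brighter than on each other array, whatever its own signal. Alternatives were no scaling, quantile normalization, the authors' table, normexp (offset 50, limma 3.58.1 in R 4.3.3), other filters, limits of 1.5-fold and 3-fold, mean or median over probes, and patches left out. Scripts (Python 3.11.15, numpy 2.4.6, pandas 2.3.3) were tested on simulated data. The 10 genes and all lists were chosen with earlier results of these data known. Named genes were these 10, up to 4 per list past 2-fold with TNF by size, fixed markers and controls, and the 3 genes most like Ctss and Ctsc. Others (Tfe3, Mitf, Tyrobp, Lyz2, Cx3cr1, Adgre1, Itgam, Fcer1g, Cd14, Mrc1, C1qb, Aif1, Ciita, H2-Eb1, Ctsf, Ctsw, Calcr, Dcstamp, Mmp9, Car2) were named after their values were seen or as list members.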

Additional observations from a re-analysis of the deposited data

Results flagged for a closer look

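For 3 genes the change with TNF had opposite signs in the genotypes, and the difference was not tested, since each group had 1 array. Ctsd, by its brighter probe, was −0.03 in Rela fl/fl and 0.15 on the arrays labelled cKO, a difference of 0.18, while its second probe gave 0.07 and −0.11. Ctss was −0.27 and 0.28, a difference of 0.55 with a technical SD of 0.61, and the second of these was taken against a spot not well above background, so that its sign is uncertain. Cst3 was −0.09 and 0.14, a difference of 0.23, but the second value turned to −0.04 after quantile normalization and −0.08 after normexp.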

How the results depend on the processing

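Counts of genes past the limit among the 10 kept their value in most settings. Without TNF, the count between genotypes (1, Ctss) became 0 with normexp, 0 when the dimmer array also had to pass the background mark and 0 at a 3-fold limit. With TNF, the count between genotypes (0) became, with Ctss, 1 without scaling, 1 in the authors' table and 1 at a 1.5-fold limit. For normexp, its offset of 50 is near the intensities of the Ctss spots; the cause was not tested. Of 435 values of single genes under alternatives, 67 moved by more than 1 technical SD, 15 of these with a change of sign, and no called value reversed. With patches left out, 7 of the 10 genes had a value (Ctsb, Ctsk and Ctsz had none). No paired analysis was possible because the groups, with 1 array each, share fewer than 2 replicate numbers. An additive fit of genotype and TNF, which would count the difference of the TNF changes as error, was not run. Signal over background limits Ctss and the dimmer lists, which lay close to it.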
